A study of Mus musculus with 2 samples.

Results

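The T-box genes examined here were Tbx2 and Tbx3, which the study set out to delete in the mouse ureter, Tbx18, whose locus drove the deletion, and the related genes Tbx1, Tbx4, Tbx5, Tbx15, Tbx20 and Tbr1. They were taken by gene name, as every non-control probe whose accession belongs to 1 of these 9 genes, out of 32103 gene names on the array. This gave 12 probes of the 39429 measured, 3 for Tbx20, 2 for Tbr1 and 1 for each of the others. The ureters labelled knockout (Tbx2/Tbx3cDKO) carried the Cre recombinase on 1 allele of Tbx18, written Tbx18(cre/+), and were homozygous for floxed alleles of both targets, written Tbx2(fl/fl) and Tbx3(fl/fl). The control ureters were Tbx18(+/+) and so without Cre. Of each target they had at least 1 floxed allele and a further allele that the label does not specify, written Tbx2(fl/?) and Tbx3(fl/?), so floxed alleles were common to all groups. All ureters came from NMRI mouse embryos at E14.5. Each of 2 two-colour arrays held 1 knockout and 1 control RNA. The female pair had the knockout RNA in AlexaFluor647 and the male pair had it in AlexaFluor555, so the sexes and the dye orientations cannot be told apart. Neither the number of embryos per RNA nor any pooling is stated in the labels, and p-values measure only how far these samples spread, with most of that estimate pooled over probes. Because Cre from the Tbx18 locus acts in the ureteric mesenchyme, the surrounding tissue keeps undeleted alleles, and in whole ureters fewer cells of a type and less RNA per cell cannot be told apart.

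T-box proteins are transcription factors that share a DNA-binding domain, the T-box, and recognise a short element with the core GGTGTG. Tbx2 and Tbx3 act mainly as repressors, and Tbx18 marks the mesenchymal progenitors that give rise to the smooth muscle and the connective tissue of the ureter. The related genes are best known elsewhere. Tbx1 acts in the pharynx, ear and outflow tract of the heart, Tbx4 and Tbx5 in the limbs and lung (Tbx5 also in the heart), Tbx15 in limb, skin and muscle, Tbx20 in the heart, and Tbr1 in the cerebral cortex.

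The promoter windows below are shown so that the T-box core can be looked for in them. They are the 250 bases before the annotated start in RefSeq (GRCm38.p6), 5′ to 3′ on the strand of the gene. Tbx18 (chr9:87731261-87731510, minus strand) is the locus that carries Cre, and Tbx4 (chr11:85896515-85896764, plus strand) is the T-box gene beside Tbx2. Dkk2 (chr3:132085042-132085291, plus strand) and Shisa2 (chr14:59625031-59625280, plus strand) are genes of the target list described further on. Capitals mark the core GGTGTG or its reverse complement CACACC.
Tbx18: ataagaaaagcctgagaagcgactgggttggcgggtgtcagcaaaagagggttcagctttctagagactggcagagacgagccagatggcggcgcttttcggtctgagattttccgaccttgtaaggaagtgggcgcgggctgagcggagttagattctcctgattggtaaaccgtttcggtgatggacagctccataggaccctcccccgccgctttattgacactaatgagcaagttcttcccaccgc
Tbx4: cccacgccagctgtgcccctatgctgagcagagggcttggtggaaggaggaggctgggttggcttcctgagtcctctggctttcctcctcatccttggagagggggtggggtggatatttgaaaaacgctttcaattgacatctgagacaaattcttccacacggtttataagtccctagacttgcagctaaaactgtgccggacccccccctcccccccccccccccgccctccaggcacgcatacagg
Dkk2: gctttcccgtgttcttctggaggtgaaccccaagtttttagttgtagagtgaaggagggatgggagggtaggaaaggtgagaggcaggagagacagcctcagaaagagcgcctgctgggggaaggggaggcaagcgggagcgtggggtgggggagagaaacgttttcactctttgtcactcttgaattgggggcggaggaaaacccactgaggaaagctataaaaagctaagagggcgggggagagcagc
Shisa2: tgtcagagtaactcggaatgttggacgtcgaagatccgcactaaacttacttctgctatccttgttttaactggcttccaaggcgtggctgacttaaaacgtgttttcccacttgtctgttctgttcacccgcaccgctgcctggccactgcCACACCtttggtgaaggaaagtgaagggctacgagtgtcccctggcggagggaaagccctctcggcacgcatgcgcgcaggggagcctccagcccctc
The core stood in the Shisa2 window, on the strand opposite to the gene, with its outermost base 98 bases before the start, and it did not stand in the Tbx18, Tbx4 or Dkk2 windows. Across 32851 windows of the same length, 16.3% held GGTGTG on either strand, 3.33% held the longer GGTGTGA and 1.12% held AGGTGTGA, each longer motif containing the shorter one. Of the 9 T-box genes, 5 had an entry (Tbx1 with a pair of starts, Tbx4, Tbx18, Tbx20 and Tbr1), and 0 of these 6 windows held the core. A match in these windows describes the letters and shows no binding, and a window without one says only that these letters were not in it.

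The targeted genes moved in opposite directions. Tbx2 was higher and Tbx3 lower in the ureters labelled knockout than in control ureters, in both pairs. For the single Tbx2 probe (A_55_P2010773), the log2 channel levels after normalization were 13.07 in the female and 12.89 in the male ureters labelled knockout, against 12.13 and 12.12 in the female and male control ureters. Both levels of the ureters labelled knockout lay above both control levels. How many of all kept probes separate in this way was not counted. With so few levels per group, such separation, here and below, adds no evidence to the test. The unnormalized spots showed the same separation. In the female pair the 4 spots read 8090 to 10500 in the knockout channel and 3620 to 4500 in the control channel, and in the male pair they read 6550 to 8040 in the knockout channel and 3930 to 5040 in the control channel.

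The log2 ratio of knockout over control for Tbx2 was 0.94 for the female and 0.78 for the male pair. The mean was 0.86 ± 0.12 (SD, n = 2 pairs), a 1.81-fold higher signal, with a 95% interval of 0.68 to 1.03 and an adjusted p of 0.00184 (limma with Benjamini-Hochberg adjustment over 25934 probes). It was the 68th highest ratio of the 25934. Single spots gave ratios of 0.91 to 0.97 for the female and 0.73 to 0.82 for the male pair, so the spots of the pairs did not overlap although the sign was the same in all 8. At this probe Tbx2 therefore goes against its label. The position of the probe relative to the deleted part of Tbx2 was not analysed here, and a probe outside the deleted part checks nothing about the deletion.

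Tbx3 (A_55_P1969002) had log2 channel levels of 14.08 and 14.06 in the female and male ureters labelled knockout, against 15.24 and 15.08 in the female and male control ureters, with no overlap. Its spots read 18300 to 22300 in the knockout channel and 30700 to 39000 in the control channel of the female pair, and 14500 to 17600 in the knockout channel and 32200 to 39700 in the control channel of the male pair. None of these spots was saturated. The log2 ratio was -1.16 for the female and -1.02 for the male pair, with a mean of -1.09 ± 0.10 (SD, n = 2 pairs), a 95% interval of -1.26 to -0.92 and an adjusted p of 0.000623 (limma). The signal was 2.13-fold lower, the 55th lowest ratio of all probes tested. The Tbx3 spots of the knockout channels stayed far above the local background, which read 28 to 134 on the spots of the T-box probes. The position of this probe relative to the floxed part of Tbx3 was likewise not analysed here.

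**Figure D1:**
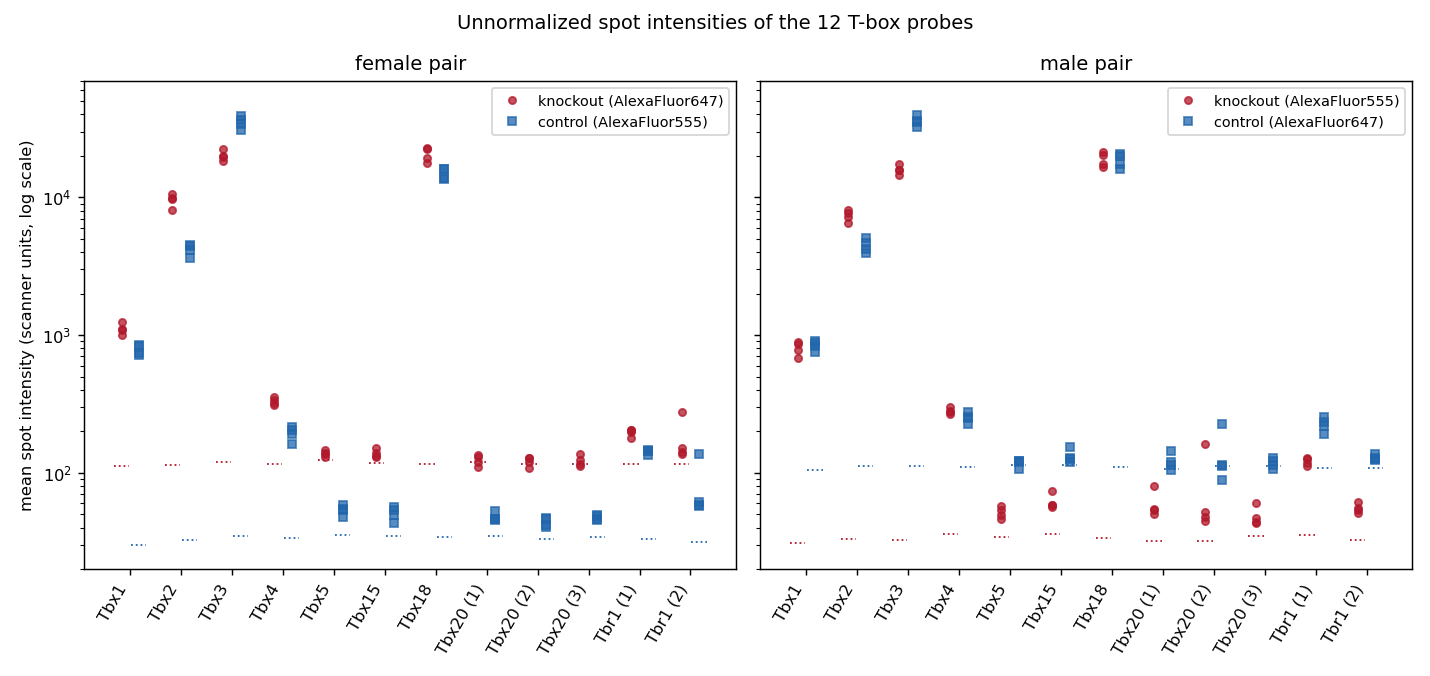
Unnormalized mean intensity of each spot (scanner units, log scale) for the 12 T-box probes, with the female pair in 1 panel and the male pair in the other. Circles are ureters labelled knockout and squares control ureters, with 4 spots each, and dotted lines give the median local background of each channel. The Tbx2 spots lie higher in the ureters labelled knockout (8090 to 10500 in the female pair) than in control ureters (3620 to 4500), the Tbx3 spots lie lower, and for 6 probes most spots lie close to the background.

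Tbx18, the driver, is a gene of the undifferentiated ureteric mesenchyme, and 1 of its alleles carried Cre in the ureters labelled knockout. Its probe (A_51_P438711) had log2 channel levels of 14.13 and 14.29 in the female and male ureters labelled knockout, against 13.98 and 14.14 in the female and male control ureters. The groups overlapped, since the level of the female ureters labelled knockout was below that of the male control ureters, while within each pair the ureters labelled knockout were higher. The log2 ratio was 0.15 in each pair, with a mean of 0.15 ± 0.0011 (SD, n = 2 pairs), a 95% interval of -0.0074 to 0.31 and an adjusted p of 0.394 (limma), so it did not pass. The spread of 0.0011 is far under the median spread of all kept probes, which was 0.0735, and the interval rests on the pooled spread instead. A 1.81-fold or 2.13-fold change of Tbx18, the sizes seen for Tbx2 and Tbx3, lay outside its interval. Before normalization the spots of the female pair read 17700 to 22900 in the knockout channel and 13500 to 16200 in the control channel, without overlap. In the male pair they read 16500 to 21200 in the knockout channel and 16100 to 20600 in the control channel. Unnormalized spots carry the dye offset of their array, so these ranges cannot be compared between the pairs. In the female pair the T-box gene Mga also separated before normalization, at 7980 to 9590 in the knockout and 6590 to 7710 in the control channel. Its normalized log2 ratio in that pair was 0.011.

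The 6 remaining genes fell into those whose probes were above background and those whose probes were not. Probes for Tbx1, Tbx4 and 1 of the 2 probes for Tbr1 passed the filter on dim probes, as did Tbx2, Tbx3 and Tbx18. This filter kept a probe where over 0.5 of its spots were well above background in the same genotype on both arrays. Of the 6 T-box probes kept, 2 were called at an adjusted p under 0.05, against 3.80% of all 25934 probes tested. By direction, 1 was higher, against a background of 1.88%, and 1 was lower, against 1.92%. Among the 3 kept probes of the paralogues 0 were called (limma), while Tbx4 and Tbr1, 2 of the 3, had an unadjusted p under 0.05, as did 3590 of all 25934 probes. All 6 kept T-box probes had the same sign in both pairs, which held for 55.5% of all kept probes, and 4 of them were higher in the ureters labelled knockout.

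Tbx4, a gene of hindlimb and lung mesenchyme that lies next to Tbx2 on chromosome 11, had log2 channel levels of 8.07 and 8.34 in the female and male ureters labelled knockout, against 7.86 and 7.80 in the female and male control ureters. Both levels of the ureters labelled knockout were above both control levels, a separation whose share over all kept probes was not counted. The ratio was 0.20 for the female and 0.54 for the male pair, and the mean of 0.37 ± 0.23 (SD, n = 2 pairs) had a 95% interval of 0.15 to 0.59 and did not pass after adjustment (adjusted p = 0.103, limma). This probe was dim. In the male pair its spots read 266 to 298 in the knockout channel over a local background of 33.5 to 37, and 225 to 276 in the control channel over 101.5 to 121.

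Tbr1, a gene of cortical neurons, had 1 probe well above background, though dim, and 1 probe that was not. The first (A_55_P2112584) had log2 channel levels of 7.22 and 7.29 in the female and male ureters labelled knockout, against 7.51 and 7.61 in the female and male control ureters, with no overlap. Its ratio was -0.29 for the female and -0.32 for the male pair, with a mean of -0.30 ± 0.020 (SD, n = 2 pairs), a 95% interval of -0.46 to -0.14 and an adjusted p of 0.0690 (limma). It passed under 1 of 13 alternatives, the scanner software's processed signals, at -0.54 with an adjusted p of 0.0460 (limma). Its spots in the female pair read 178 to 205 in the knockout channel over a local background of 112.5 to 120, and 134 to 146 in the control channel over 32 to 35, so the unnormalized spots of that pair had the opposite order to the normalized levels. Of the brain markers, Emx1, Neurod6 and Eomes were not above background, and Emx2, which is also a gene of the urogenital tract, had a log2 ratio of 0.19 (adjusted p = 0.316, limma). The markers Emx2 and, further on, Myl7, Osr1, Foxf1 and Hoxd13 were named after their values were seen.

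Tbx1 had log2 channel levels of 9.95 and 9.73 in the female and male ureters labelled knockout, against 9.76 and 9.68 in the female and male control ureters. The level of the male ureters labelled knockout lay between the control levels, so the groups overlapped. Within each pair the ureters labelled knockout were higher, with a log2 ratio of 0.19 for the female and 0.046 for the male pair. The mean ratio of 0.12 ± 0.10 (SD, n = 2 pairs) did not pass (95% interval -0.055 to 0.29, adjusted p = 0.613, limma).

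**Figure D2:**
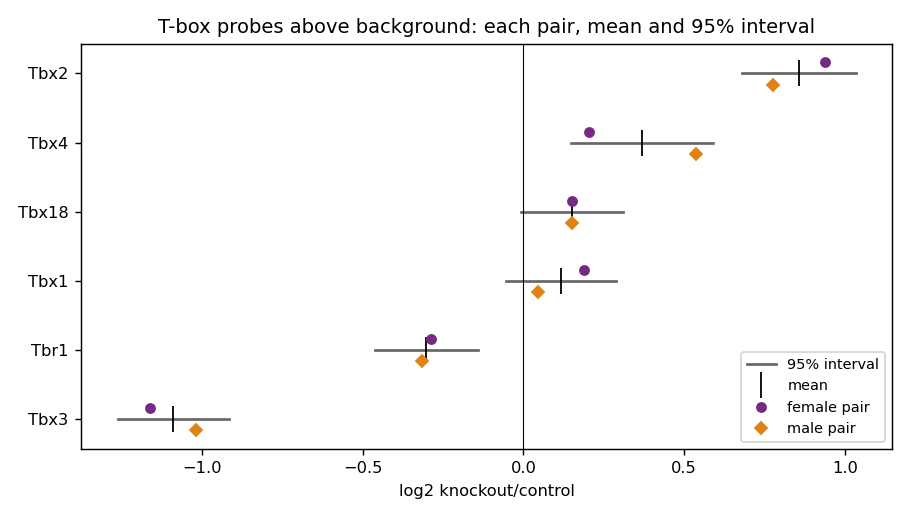
Log2 ratio of ureters labelled knockout over control ureters for the 6 T-box probes above background, with the female pair as circles, the male pair as diamonds, the mean as a tick and the 95% interval as a line. The intervals of Tbx2 (0.68 to 1.03) and Tbx3 (-1.26 to -0.92) lie far from 0, and those of Tbx18 and Tbx1 include 0.

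Tbx5, Tbx15, the 3 Tbx20 probes and the second Tbr1 probe (A_55_P2405129) were not well above background in the ureters labelled knockout or in control ureters, and no ratio is given for them. For Tbx5 and Tbx15, 0 of 4 spots in any channel were well above background. For Tbx20, 1 probe had 1 such spot in each channel of the male pair, 1 had 1 such spot in the knockout channel of the male pair, and 1 had none. The second Tbr1 probe had 1 bright spot in the female pair, at 275 in the knockout channel and 137 in the control channel, beside 3 spots of 136 to 151 and of 57.3 to 61.

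The log2 channel levels of Tbx5 were 6.52 and 6.41 in the female and male ureters labelled knockout, against 6.43 and 6.37 in the female and male control ureters. Those of Tbx15 were 6.58 and 6.56 in the female and male ureters labelled knockout, against 6.40 and 6.54 in the female and male control ureters. The 3 Tbx20 probes had levels of 6.31 to 6.71 in the ureters labelled knockout, against 6.29 to 6.53 in control ureters. The second Tbr1 probe was at 6.96 and 6.51 in the female and male ureters labelled knockout, against 6.80 and 6.58 in the female and male control ureters. Levels so near the background have only an upper bound, and the raw values of these probes followed the dye. The 3 Tbx20 probes read 109 to 136 in the knockout channel and 40.6 to 52.3 in the control channel of the female pair, where the knockout RNA was in AlexaFluor647. In the male pair, where it was in AlexaFluor555, they read 43 to 162 in the knockout channel and 88.9 to 227 in the control channel. The heart markers Nkx2-5 and Nppa were also not above background, while 5 other heart muscle markers were. Of those 5, 0 were called higher and 1 lower, against 1.88% and 1.92% of all probes tested. Myh6 was at 0.26 and 0.27 in the female and male pair and did not pass (adjusted p = 0.102, limma). Tnni3, Myh7 and Myl2 had mean ratios of -0.11, -0.19 and -0.16 and did not pass either. The 1 called was Myl7, with log2 channel levels of 7.22 and 7.34 in the female and male ureters labelled knockout against 7.58 and 7.81 in the female and male control ureters. Its log2 ratio was -0.42 ± 0.078 (SD, n = 2 pairs, adjusted p = 0.0263, limma). Its ratio was -0.78 with the processed signals and with the deposited value table, and with median centring the call was lost (adjusted p = 0.149, limma).

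The dye exchange allowed the part of each ratio that followed the dye to be separated from the part that followed the genotype. The dye part is the mean of the red-over-green log2 ratios of both arrays. It was 0.081 for Tbx2, -0.072 for Tbx3, 0.071 for Tbx1, 0.014 for the brighter Tbr1 probe and -0.00075 for Tbx18. For Tbx4 it was -0.17. Over all kept probes the median absolute dye part was 0.0520 and the 95th percentile was 0.181, so that of Tbx4 was near the upper end and the others were not. A difference between the sexes would enter the same quantity.

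**Figure D3:**
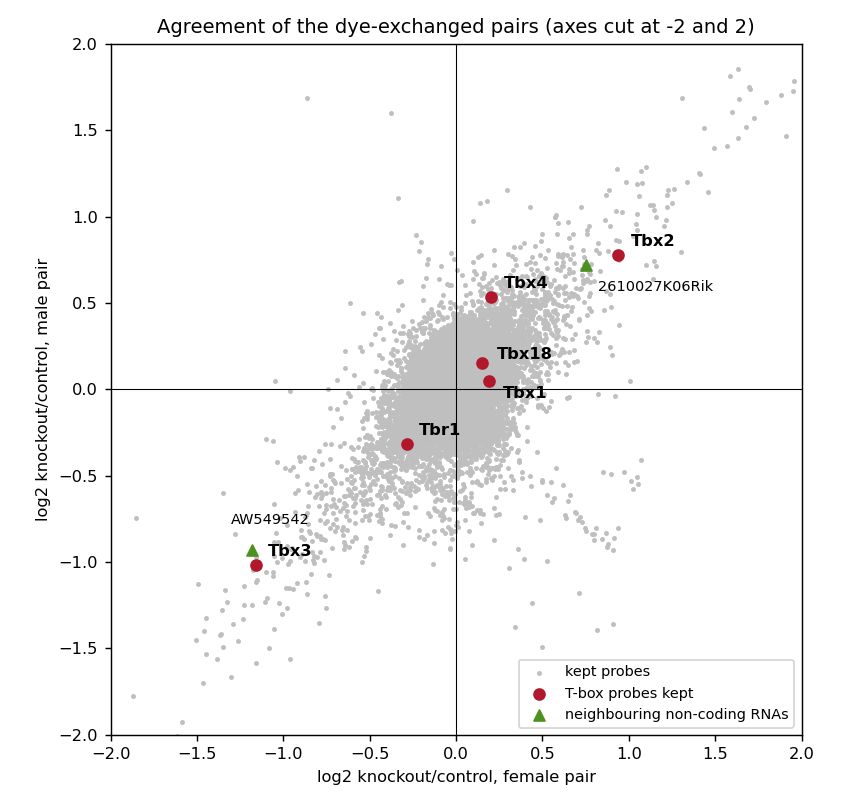
Log2 ratio of ureters labelled knockout over control ureters in the male pair against that in the female pair, for the probes kept (grey), the 6 T-box probes above background (circles) and a pair of neighbouring non-coding RNAs (triangles). Tbx2 and 2610027K06Rik lie together at the upper right, Tbx3 and AW549542 at the lower left, and 28 kept probes fall outside the plotted range of -2 to 2.

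Tbx2 and Tbx4 are neighbours on chromosome 11, and Tbx3 and Tbx5 are neighbours on chromosome 5, as in other vertebrates. The 3 nearest genes with a probe above background were therefore read on each side of Tbx2 and of Tbx3, in the order of the RefSeq gene table. Next to Tbx2, with 0 genes between, lies the long non-coding RNA gene 2610027K06Rik. Its log2 channel levels were 10.63 and 10.62 in the female and male ureters labelled knockout, against 9.88 and 9.90 in the female and male control ureters, with no overlap. It rose with Tbx2, by a log2 ratio of 0.73 ± 0.023 (SD, n = 2 pairs, adjusted p = 0.00236, limma).

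The other neighbours of Tbx2 did not pass. On the same side, Bcas3, which encodes a protein of cell migration, was at 0.32 ± 0.13 (SD, n = 2 pairs, adjusted p = 0.0809, limma) and at 0.14 with a dimmer probe, and the phosphatase gene Ppm1d was at -0.026. On the other side, beyond Tbx4, the DNA helicase gene Brip1 was at -0.0021 and Ints2, a subunit of the Integrator complex, at -0.13. Among the 7 genes read at this locus, Tbx2 and 2610027K06Rik were called higher, against 1.88% of all probes tested.

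At the Tbx3 locus the long non-coding RNA gene AW549542, with 3 genes between it and Tbx3, was lower as Tbx3 was. Its log2 channel levels were 11.86 and 11.81 in the female and male ureters labelled knockout, against 13.04 and 12.74 in the female and male control ureters, again with no overlap. Its ratio was -1.18 for the female and -0.93 for the male pair, with a mean of -1.05 ± 0.18 (SD, n = 2 pairs, adjusted p = 0.00125, limma). The 5 others did not pass, namely 4930413E15Rik at 0.0071, the Mediator subunit gene Med13l at 0.30 (adjusted p = 0.108, limma), the RNA-binding protein gene Rbm19 at 0.0017 (-0.13 with a dimmer probe), Sdsl at -0.11 and Plbd2 at 0.013. Tbx5, which lies between Tbx3 and Rbm19, was not above background. Of all probes tested, 1.92% were called lower.

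**Figure D4:**
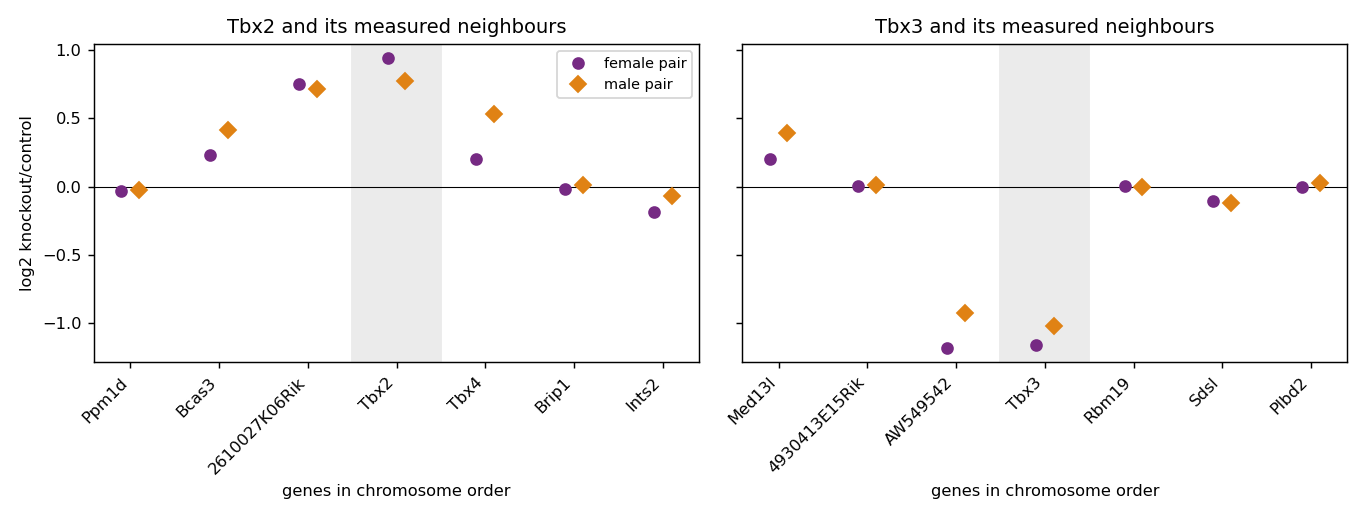
Log2 ratio of ureters labelled knockout over control ureters for Tbx2, Tbx3 and the 3 nearest genes with a kept probe on each side, in chromosome order, with the female pair as circles and the male pair as diamonds. 2610027K06Rik (0.75 and 0.72 in the female and male pair) lies near Tbx2, AW549542 (-1.18 and -0.93) lies near Tbx3, and the other neighbours lie between -0.19 and 0.54.

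Genes were compared with each target by Euclidean distance over the ratios of the 2 pairs, taking the brightest kept probe of a gene. T-box genes, sex-linked genes and probes without a RefSeq symbol were left out. Provisional symbols, such as those ending in Rik or starting with Gm or LOC, were left out too. Among the genes that remained, the nearest to each target were listed. For Tbx2 these were Atp6v0d2, a subunit of the vacuolar proton pump, at 0.94 and 0.75 in the female and male pair (distance 0.027), Gt(ROSA)26Sor, the ubiquitously expressed non-coding locus used for transgenes, at 0.88 and 0.80 (distance 0.062), and the protease gene Prss23 at 0.92 and 0.87 (distance 0.093). The control channel of Atp6v0d2 was well above background on 1 of 2 arrays, and a dimmer probe gave a mean of 0.48. For Tbx3 they were Spon1, an extracellular matrix protein, at -1.18 and -1.05 (distance 0.034), Tpbg, a membrane glycoprotein, at -1.16 and -0.97 (distance 0.049), and the muscarinic receptor gene Chrm3 at -1.10 and -1.06 (distance 0.071). The likeness rests on 2 arrays only. With the scanner software's processed signals, Atp6v0d2 was at 1.62 and Chrm3 at -1.80, and with the deposited values at 1.504 and -1.73.

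The 8 further T-box genes of the mouse were read in the same way, and 5 of their 10 probes were kept. Of these 5, 0 were called (limma), against 3.80% of all 25934 probes tested, and 0 had an unadjusted p under 0.05, against 3590 of all probes. T (Brachyury), a gene of the early mesoderm and notochord, was at -0.026 (adjusted p = 0.964, limma), and its log2 channel levels were 8.09 and 8.15 in the female and male ureters labelled knockout, against 8.09 and 8.20 in the female and male control ureters. The probes of Tbx6, a gene of the paraxial mesoderm, were at 0.11 and 0.078, Tbx10 was at 0.11, and Mga, which joins a T-box to a MYC-like dimerization domain and is widely expressed, was at 0.10. Eomes, Tbx19, Tbx21 and Tbx22 were not above background.

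Genes reported as targets of repression by TBX2 or TBX3 were counted next. Of 18 genes, 16 were tested, 4 rose, 0 fell and 12 did not pass, with a median log2 ratio of 0.14. Over all probes tested 1.88% rose and 1.92% fell, with a median of -0.0015 over those kept. The study picked Dkk2, Shisa2, Bmper and Cxcl12 on these samples, so their direction is not independent evidence. Without these 4, a setting chosen after seeing the data, 12 were tested, 1 rose (Il33), 0 fell and 11 did not pass (limma), with a median of 0.082. Of these 12, 4 had an unadjusted p under 0.05 (limma), as had 3590 of all 25934 probes tested. The whole list was chosen with earlier results of these data known, so these 12 are not independent evidence either. Dkk2, a secreted protein that modulates WNT signals, had log2 channel levels of 14.87 and 14.93 in the female and male ureters labelled knockout, against 13.99 and 13.78 in the female and male control ureters, and a ratio of 1.02 ± 0.19 (SD, n = 2 pairs, adjusted p = 0.00155, limma). Shisa2, which holds back WNT and FGF receptors, had levels of 14.89 and 14.77 in the female and male ureters labelled knockout, against 14.24 and 14.29 in the female and male control ureters, and a ratio of 0.56 ± 0.11 (SD, n = 2 pairs, adjusted p = 0.00997, limma). In both genes the groups did not overlap, a separation whose share over all kept probes was not counted.

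Il33, a cytokine of the interleukin-1 family, rose by 0.44 ± 0.094 (SD, n = 2 pairs, adjusted p = 0.0231, limma), and Bmper, a secreted BMP-binding protein, by 0.43 ± 0.0082 (adjusted p = 0.0187, limma). Of the 4 genes that rose, Dkk2 kept its call under all 13 alternatives. The other 3 lost it with the processed signals and with the deposited value table, and Il33 and Bmper also with median centring. Of the promoter windows of the 4 genes that rose, 2 of 5 held GGTGTG, that of Shisa2 printed above and 1 of the 2 of Il33. Of all 32851 windows, 16.3% held it. The windows of the listed genes that did not rise were not read, so no link between the core and the rise was tested. Cdkn1a, which encodes the cell cycle inhibitor p21 and is a much cited target, was at 0.25 (adjusted p = 0.131, limma) and Cdkn1b at -0.10 (adjusted p = 0.657, limma), while Cdkn2a was not above background. Cdkn1a, Cdkn1b and Cdkn2a were named after their values were seen.

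Among 11 reported protein partners of T-box factors, 9 were tested, 0 rose, 1 fell and 8 did not pass, against 1.88% higher and 1.92% lower over all probes, with a median log2 ratio of -0.039. The 1 that fell was Egr1, an immediate early transcription factor, with log2 channel levels of 13.74 and 13.85 in the female and male ureters labelled knockout against 14.68 and 14.30 in the female and male control ureters. Its log2 ratio was -0.70 ± 0.35 (SD, n = 2 pairs, adjusted p = 0.0265, limma), and the call ended with the processed signals, the deposited table and median centring.

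Markers of cell types were read beside these values, against a background of 1.88% of all probes called higher and 1.92% called lower. An unadjusted p under 0.05 (limma) was found for 3590 of all 25934 probes tested. Urothelium, the epithelium in which Cre is not expected to act, had 0 of 12 markers called (limma, 5 with an unadjusted p under 0.05), a median log2 ratio of -0.041 and a summed log2 level of 17.60 and 17.66 in the ureters labelled knockout, against 17.78 and 17.72 in control ureters, and its uroplakins were above background in all 4 RNAs. Smooth muscle had 6 of 6 markers lower, with a median of -3.05 and a summed level of 14.476 and 14.504 in the ureters labelled knockout against 17.271 and 17.714 in control ureters. Of 7 markers of the ureteric mesenchyme, Tbx18 among them, Osr1 was higher (0.43, adjusted p = 0.0269, limma) and Foxf1 lower (-0.49, adjusted p = 0.0159, limma; -0.38 with a dimmer probe, which did not pass), and the summed level was 17.39 and 17.45 in the ureters labelled knockout against 17.44 and 17.39 in control ureters. Both calls were lost with the processed signals, with median centring and with the deposited value table, each in the same direction. Of the glial and neuronal markers 2 of 6 were higher (limma, 3 with an unadjusted p under 0.05). Of the limb or flank markers 1 of 5 tested was higher (Hoxd13, 0.99), with 2 at an unadjusted p under 0.05 (limma). Of the endothelial, immune and nephron markers 0 of 5, 0 of 4 and 0 of 4 tested were called (limma, with 2, 3 and 1 at an unadjusted p under 0.05). The erythroid list had 1 of 4 higher (limma, 3 with an unadjusted p under 0.05). The nephron markers had a summed level of 13.02 and 13.31 in the ureters labelled knockout against 12.92 and 12.77 in control ureters. Pax8 was at 0.28 and 0.17 in the female and male pair (adjusted p = 0.182, limma). Lhx1 was at 0.062 and -0.062 in the female and male pair, with a mean ratio of -0.00023. For Six2 and Wt1 the pairs differed more. Six2 had log2 channel levels of 8.55 and 10.15 in the female and male ureters labelled knockout, against 8.89 and 9.04 in the female and male control ureters. Those of Wt1 were 11.86 and 12.29 in the female and male ureters labelled knockout, against 11.89 and 11.50 in the female and male control ureters. The male ureters labelled knockout were the highest for both, and Six2 and Wt1 were named after their values were seen. The part that the lower smooth muscle markers or these other shifts, the nephron markers included, have in the T-box values was not tested.

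**Figure D5:**
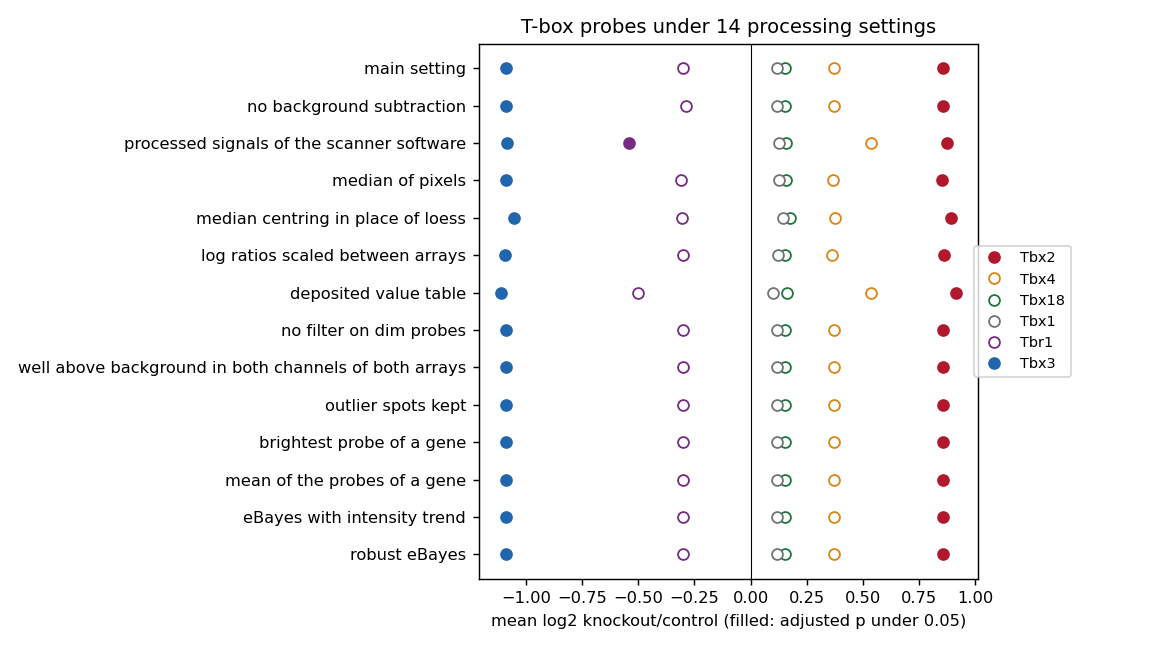
Mean log2 ratio of ureters labelled knockout over control ureters for the 6 T-box probes above background under the main setting and 13 alternatives, with filled circles where the adjusted p was under 0.05. Tbx2 (0.85 to 0.91) and Tbx3 (-1.11 to -1.05) are filled in every row, and Tbr1 is filled where the scanner software's own processed signals were used, at -0.54.

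Across the 13 alternatives Tbx2 ranged from 0.85 to 0.91 with an adjusted p of 2.96e-04 to 0.0354 (limma), and Tbx3 from -1.11 to -1.05 with an adjusted p of 6.54e-05 to 0.0153 (limma). Both were called under all 13. Tbx18 ranged from 0.15 to 0.17, Tbx1 from 0.098 to 0.14 and Tbx4 from 0.36 to 0.54, and these 3 were called under none. For the T-box probes, the alternatives on the filter, outlier spots, joining of probes and variance model could move the adjusted p only, not the ratio. 2610027K06Rik and AW549542 were also called under all 13, at 0.71 to 0.79 and -1.06 to -1.02.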

How the data were processed

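Ureter RNA was hybridised as 2 two-colour Agilent arrays. The deposited scanner files give, per the file headers, an intensity for every spot and its surrounding background in both channels, not yet normalized. Agilent Feature Extraction 10.7.3.1 is named in the submitters' processing notes. A deposited table gives each probe 1 signed fold on each array, a score whose making no header or label describes. Over probes above background its log2 values correlated at 0.982 and -0.985 with red over green of the female and male array, which set its direction as knockout over control. Over all probes the correlations were 0.576 and -0.456, and 33.7% and 34.1% of its values were exactly 1. Its median was 1, and its scale floor and centring stay unknown.

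Mean intensities were background-corrected (normexp, offset 50) and loess-normalized within arrays. Non-uniform spots were left out (186 in the female pair, 223 in the male), 0 were saturated, and the 4 spots of a probe were averaged. Between 64.3% and 71.6% of spots per channel were well above background. Channel levels were also scaled between arrays (Aquantile). Ratios were tested with limma 3.58.1 in R 4.3.3 (lmFit, eBayes), with 1 residual and 5.65 prior degrees of freedom, and Benjamini-Hochberg adjustment. The number of arrays limits the precision. Summed marker levels are log2 of the sum of linear levels.

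Probe accessions were named through RefSeq (GRCm38.p6), which matched 28328 probes. No header or label states the build behind the array, so probes have no coordinates. The members, lists and the rule for named genes were chosen with earlier results of these data known. That rule takes all T-box probes, the 3 nearest measured neighbours per side and the 3 most alike genes of Tbx2 and Tbx3, and the called list members. Both arrays were on 1 slide. Alternatives changed the background correction, the pixel summary, the normalization within and between arrays, the source of values, the filter, the handling of outlier spots, the joining of probes and the variance model, or left out a pair. The value of 1 brain marker is not reported here. The procedure was checked on simulated data with a spread drawn from the fitted variance model. These held no dye or sex difference of single probes, so the check says nothing about such differences.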

Additional observations from a re-analysis of the deposited data

Results flagged for a closer look

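A few of the values given had opposite signs in the pairs, as did 44.5% of all kept probes. With 1 pair per sex no test of the difference was possible, and the dyes differ along with sex. The male minus female difference in log2 ratio was 0.034 for Brip1, 0.034 for Plbd2, -0.0044 for Rbm19 and -0.055 for T, and each of these ratios was within 0.055 of 0 in both pairs. The nephron marker Lhx1 also had opposite signs, at 0.062 and -0.062 in the female and male pair. Larger differences were those of the nephron markers Six2, 1.44, and Wt1, 0.82. The T-box probes Tbx1, Tbx2, Tbx3, Tbx4, Tbx18 and Tbr1 that were above background had the same sign in both pairs.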

How the results depend on the processing

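The main test was already paired, since the log ratio of each array is the difference within a pair. No paired analysis was possible because of this beyond the main one, as no further replicate block could be added. With the processed signals 305 probes were higher and 302 lower, with median centring 176 and 202, and with the authors' deposited values 178 were higher and 197 lower, against 487 and 499 in the main setting. The other alternatives stayed within 1.5 times of the main counts. Leaving out a pair leaves no residual degrees of freedom and no test. With the female pair left out, the log2 ratio was 0.78 for Tbx2, -1.02 for Tbx3, 0.54 for Tbx4 and -0.32 for Tbr1. With the male pair left out, it was 0.94 for Tbx2, -1.16 for Tbx3, 0.20 for Tbx4 and -0.29 for Tbr1. No T-box value above background changed sign under the 13 alternatives. Those on the filter, the outlier spots, the joining of probes and the variance model could not change these ratios. Each of these genes had a single kept probe without non-uniform spots. Tbx4 and Tbr1 had dim spots, and for the 6 T-box probes not well above background no ratio could be had. Deletion of either gene could not be read from single probes of unknown position.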
